A study of Mus musculus with 4 samples.

Results

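The cells described here are kidney tubule cells that carry the messages of both Slc12a1, the loop diuretic-sensitive sodium-potassium-chloride cotransporter, and Umod, which encodes uromodulin. They were taken from 4 single-cell libraries of mouse kidney by counts alone: at least 2 unique molecular identifiers (UMIs, one per captured transcript) of Slc12a1, at least 2 of Umod and at most 1 of Slc12a3, the cotransporter of the next segment, in cells that passed limits of 500 genes or more and no more than 20% mitochondrial UMIs. The rule found 649 cells of 22838, or 2.84%: 9 of 3565 in the E15.5 library, 55 of 4563 in that of E17.5, 218 of 8092 in that of P0 and 367 of 6618 in that of a kidney transplant. The levels of Slc12a1, Umod and Slc12a3 chose the cells and are given below as a description.

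Each library is 1 sample of kidney labelled wild type and processed with the 10x Genomics 3′ v2 chemistry. The P0 library nevertheless held UMIs of a transgene, tdTomato, as described near the end. The E15.5 and P0 kidneys came from ICR mice and the E17.5 kidneys from C57BL/6 mice. The transplant was C57BL/6N kidney taken at E12.5 and kept for 12 days in the fat beside the epididymis of a host, which one label gives as C57BL/6N and another as a NOD immunodeficient mouse. The series follows kidney maturation, and the comparisons made here ask how these cells differ between E17.5 and P0 and between P0 and the transplant. Strain changes along with age in the first comparison, and strain, age, host and site change together in the second, so these cannot be told apart. Both comparisons use the P0 library, and the part of its transgene in them was not tested. With 1 library per group there is no test between groups, and every interval below is a 95% interval that covers counting error only.

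The thick ascending limb is the part of the loop of Henle that leads back from the medulla to the cortex. Its cells take up sodium, potassium and chloride from the urine through Slc12a1, return potassium through Kcnj1 and pass chloride on to the blood. The sodium pump drives this transport, the wall is tight to water, and the resulting voltage drives sodium, calcium and magnesium between the cells through claudins. The segment is known for its many mitochondria, and it makes uromodulin, the most abundant protein of normal urine. At its end lies the macula densa, a plaque of cells that senses salt and signals to the glomerulus.

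Umod lies on chromosome 7 from 119462711 to 119479282 on the minus strand, Slc12a1 on chromosome 2 from 125152505 to 125230002 on the plus strand and Wfdc15b, a secreted protease inhibitor-like protein that marks the segment, on chromosome 2 from 164214454 to 164221660 on the minus strand (GRCm38, GENCODE M21). The 250 bases before the start of Umod and of Wfdc15b are shown because these 2 genes, 1 used by the rule and 1 not, set the members apart from other cells. The start is that of RefSeq, which for Umod lies inside the GENCODE gene given above. The sequences were read from the RefSeq promoter table for GRCm38.p6, on the strand of the gene and 5′ to 3′, at chr7:119479263-119479512 for Umod and chr2:164221664-164221913 for Wfdc15b, and capitals mark a match to GTTAAT, the half-site bound by HNF1 factors.
Umod: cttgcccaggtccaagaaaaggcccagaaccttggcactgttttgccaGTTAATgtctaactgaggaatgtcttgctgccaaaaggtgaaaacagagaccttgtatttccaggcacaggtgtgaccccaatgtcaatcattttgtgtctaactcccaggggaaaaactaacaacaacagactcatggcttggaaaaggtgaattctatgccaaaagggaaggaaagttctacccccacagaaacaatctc
Wfdc15b: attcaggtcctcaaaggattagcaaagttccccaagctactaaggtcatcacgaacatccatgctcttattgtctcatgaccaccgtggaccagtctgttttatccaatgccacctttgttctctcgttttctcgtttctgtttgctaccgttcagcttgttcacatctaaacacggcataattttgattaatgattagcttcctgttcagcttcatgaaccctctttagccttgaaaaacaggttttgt
The Umod stretch held 1 match to GTTAAT, at bases 202 to 197 before the start. The motif was searched on both strands and was found in the same 250-base window of 2113 of 32851 promoters, 6.43%. A second motif, TCAAGGTCA, the extended half-site of estrogen-related receptors, was found in 127 of them, 0.387%, and in neither of the sequences shown. The 2 motifs do not overlap, a match is a description of letters and not a binding site, and the absence of a match says nothing of the factor.

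The members were a small set at every age, and their share of the library was lowest at E15.5 and highest in the transplant. It was 0.252% [0.116, 0.479] for the E15.5 kidneys, 1.21% [0.909, 1.57] for those of E17.5, 2.69% [2.35, 3.07] for those of P0 and 5.55% [5.01, 6.12] for the transplant. Depth differed between the libraries: other cells had median UMIs of 22685, 7241, 9905.5 and 5995 in that order. With each cell thinned to 4000 UMIs before the rule was applied, 0 of 3389 E15.5 cells met it, which allows a share of up to 0.0885%, and the share was 0.851%, 1.96% and 5.13% in the other libraries. The order of the 4 libraries was the same with and without thinning. Thinning left out cells under 4000 UMIs, which numbered 176, 687, 1057 and 2268, among them 0, 2, 7 and 42 members. The thinned shares are therefore of the deeper cells only, and most of all in the transplant. With members that carried markers of another cell type left out, as defined below, the shares were 0.0281%, 0.877%, 1.92% and 1.93%. Such cells were taken out of the members only and not out of the cells they are a share of. P0 and the transplant were then close. The members had median UMIs of 59409, 10265, 11438.5 and 14777, above the other cells of each library, and a median mitochondrial share of 4.97%, 5.70%, 8.07% and 4.74%.

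**Figure D1:**
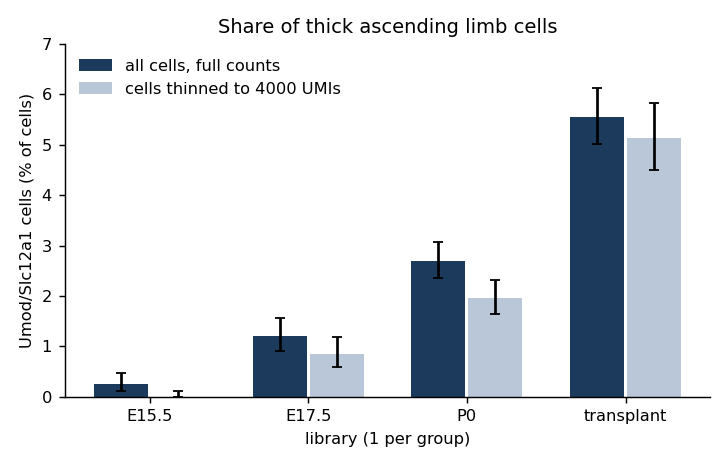
Share of cells that meet the rule (percent of cells, vertical axis) in each library (horizontal axis), from full counts (dark bars) and after thinning to 4000 UMIs (light bars), with exact binomial 95% intervals. The share is lowest at E15.5, with 9 cells, and 5.55% in the transplant.

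Among the members, Slc12a1 ranged from 3 to 298 UMIs per cell (median 58) in the youngest library, then from 2 to 53 (median 18), from 2 to 87 (median 16) and, for the transplant, from 2 to 404 (median 36). Umod had medians of 5, 6, 8 and 13 UMIs and highest values of 19, 25, 79 and 224. Just inside the rule, 2, 12, 26 and 44 members had exactly 2 UMIs of Umod. Just outside it, 5, 29, 69 and 76 cells had 1 UMI of Umod beside enough Slc12a1, 2, 4, 23 and 36 had 1 UMI of Slc12a1 beside enough Umod, and 8 transplant cells were left out by Slc12a3. A further 12, 25, 113 and 149 cells had at least 2 Umod UMIs and no Slc12a1. Endothelial cells, which should lack Umod, carried a Umod UMI in 2.01%, 0.562%, 2.20% and 6.31% of cells, and 2 or more in at most 1.03%. Here and below, endothelial cells were required to have no Slc12a1 UMI, which can leave out cells with free RNA of the segment. Their shares therefore cannot show how often free RNA meets the rule. The members held 38.9% of all Umod UMIs of the E15.5 library and 67.8%, 73.7% and 80.7% of those of the 3 that followed.

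The markers of the thick ascending limb that the rule did not use were higher in the members than in other cells. Their summed level over 9 genes was 867, 2812, 2843 and 2613 CPM (UMIs of a gene per 1000000 UMIs of the group of cells) against 67.2, 175, 151 and 512 CPM in other cells, and 8, 8, 9 and 8 of the 9 were higher. Egf, a growth factor of the adult segment and a marker of it, was the marker that was not: it had 11 UMIs at P0, 20 in the transplant and 0 in the younger libraries, and was at 3.53 CPM in the transplant against 8.77 CPM in other cells. Wfdc15b, which the rule did not use, was found after thinning in 6 of 9, 35 of 53, 166 of 211 and 260 of 325 members, again by age with the transplant last, against 4.88%, 2.09%, 2.13% and 8.11% of endothelial cells. The sums of the 14 other marker classes were lower in the members than in the rest of each library, with 2 exceptions. These were erythroid genes at P0, at 43.3 against 14.2 CPM, and urothelium genes in the transplant, at 44.3 against 6.92 CPM, a sum that is mostly Upk1a.

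Some members also carried RNA of other cell types, and they did so unevenly. At least 2 markers of 1 class among proximal tubule, podocyte, stroma, endothelium, macrophage and lymphoid cells had a UMI in 8 of 9, 15 of 55 and 63 of 218 members of the 3 ages and in 239 of 367 of the transplant. In the transplant 171 of these met the podocyte list, where Cdkn1c, a gene that tubule cells can express too, was found in 257 members, and 95 met the proximal tubule list. These lists were met by 46.6% and 25.9% of transplant members and by 53.8% and 39.0% of other transplant cells. The macrophage list went the other way, at 4.63% of members and 4.14% of other cells. Erythroid genes summed to 623, 21.2, 43.3 and 1071 CPM. A doublet score marked 0, 4, 18 and 8 members. Members with under 5 Slc12a1 UMIs per 10000 numbered 3, 7, 31 and 33, a cutoff chosen after the values were seen. Their proximal tubule sum was 506 against 91.6 CPM in the rest at P0 and 494 against 115 CPM in the transplant, where their endothelium sum was 533 against 63.3 CPM. The part of such RNA in the results below was not tested. The libraries shared between 27 and 108 cell barcodes pairwise, none of them between members.

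The core transport genes were present in the members of every library, and between E17.5 and P0 most of them differed little. The sodium pump subunit Atp1b1 was at 1484, 2766, 2528 and 2564 CPM from the youngest library to the oldest with the transplant last, the order used for every set of 4 values here. Fxyd2, the pump's gamma subunit, was at 1195, 4929, 4562 and 5853 CPM, against 217, 965, 618 and 2135 CPM in other cells. Both were lowest in the 9 cells of E15.5. The potassium channel Kcnj1 (ROMK) was at 99.7, 302, 153 and 248 CPM. It was lower at P0 than at E17.5 by a ratio of 0.506 [0.423, 0.608] and higher in the transplant than at P0 by 1.62-fold [1.45, 1.81], and it was found after thinning in 5 of 9, 30 of 53, 99 of 211 and 175 of 325 members.

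Channel subunits and kinases differed gene by gene. Bsnd, a chloride channel subunit, was at 41.5, 46.0, 33.3 and 75.5 CPM, and Kcnj16, a basolateral potassium channel, at 94.7, 92.0, 94.3 and 225 CPM, 2.39-fold [2.09, 2.74] higher in the transplant than at P0. Its partner Kcnj10 was at 4.98, 19.5, 18.4 and 13.9 CPM. The kinase Wnk1, a regulator of the cotransporters, was at 69.8, 101, 225 and 220 CPM and 2.24-fold [1.70, 2.99] higher at P0 than at E17.5, while Stk39 (SPAK), the kinase downstream of it, was at 68.1, 111, 69.1 and 76.6 CPM.

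Among the claudins, which set the path between cells, Cldn10, the sodium-selective pore, was at 317, 1429, 1352 and 892 CPM, and in the transplant 0.660 [0.633, 0.688] times its P0 level. Cldn16, a pore for calcium and magnesium, was at 28.2, 60.1, 116 and 168 CPM, higher at each later age and highest in the transplant. Cldn19, its partner, was at 105, 285, 212 and 258 CPM. Cldn3 was at 15.0, 79.6, 162 and 566 CPM, 2.04-fold [1.5, 2.84] higher at P0 than at E17.5 and 3.48-fold [3.16, 3.85] higher in the transplant than at P0. Other cells of the transplant also held more Cldn3 than those of P0, 173 against 93.1 CPM.

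**Figure D2:**
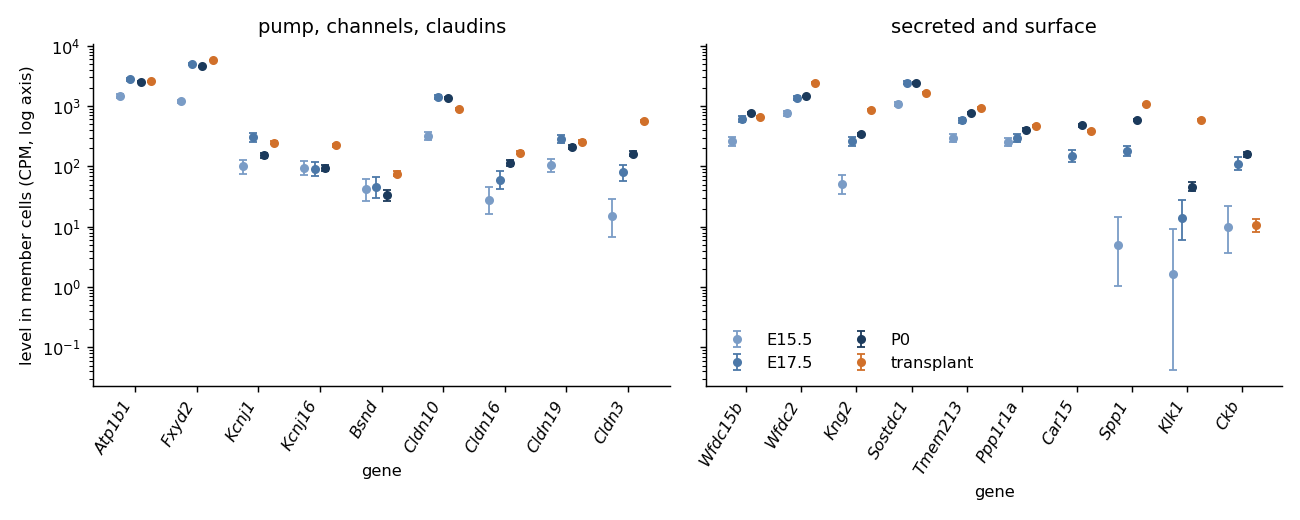
Levels in the members (CPM, log axis) of transport and claudin genes (left) and of secreted, surface and enzyme genes (right) in the 4 libraries, with exact Poisson 95% intervals. Klk1 and Cldn3 are highest in the transplant, Ckb is at 159 CPM at P0 and 10.6 CPM in the transplant, and Car15 has no E15.5 point because it had 0 UMIs there.

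The comparisons over all genes give the scale for the counts over lists that follow. Between E17.5 and P0, 295 of 6724 genes with at least 50 UMIs were at least 2-fold higher at P0, 4.39%, and 233 were at least 2-fold lower, 3.47%, around a median log2 ratio of -0.13. Between P0 and the transplant, 1456 of 9660 genes were at least 2-fold higher in the transplant, 15.1%, and 373 at least 2-fold lower, 3.86%, around a median of 0.35. When ratios were divided by these medians the split was 375 higher and 136 lower for the first comparison and 713 higher and 688 lower for the second, so the excess of higher genes in the transplant depends on the scaling. Ratios given in the text are unscaled. Lists use genes with at least 20 UMIs over both libraries, of which 38.6% were higher at P0 than at E17.5 and 71.5% higher in the transplant than at P0, 17.3% at least 2-fold. A gene seen in 1 of the libraries passes that minimum only through it, so the counts over lists are descriptions of the genes that passed.

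Counted over the list of 23 salt transport genes, of which 21 had at least 20 UMIs over both libraries, 8 were higher and 13 lower at P0 than at E17.5. Their median log2 ratio was -0.11, beside -0.15 over all 9164 genes with that minimum, so the list lay near the bulk of genes. Against P0, 16 of 21 were higher in the transplant and 5 lower, with a median of 0.19 beside 0.36 over 11137 genes, and this median is -0.16 when ratios are scaled to the median of all genes. In the other cells of the libraries the same 21 genes had a median of 1.06.

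Receptors for the hormones that act on the segment were sparse, and the prostaglandin receptor Ptger3 was the clearest of them. It was at 6.65, 77.8, 94.0 and 34.8 CPM, against at most 2.94 CPM in other cells of any library. After thinning it was found in 0 of 9, 19 of 53, 56 of 211 and 34 of 325 members. Its transplant level was 0.370 [0.306, 0.446] times that of P0. The parathyroid hormone receptor Pth1r, at 145, 101, 118 and 255 CPM, was 2.16-fold [1.92, 2.44] higher in the transplant than at P0, but other cells were also higher there, 189 against 62.8 CPM. The glucagon receptor Gcgr was at 4.98, 5.31, 9.22 and 25.4 CPM and the calcium-sensing receptor Casr at 1.66, 3.54, 8.51 and 14.3 CPM, the latter from 1, 2, 24 and 81 UMIs. The glucocorticoid receptor Nr3c1 was at 118, 138, 69.5 and 110 CPM, 0.504 [0.386, 0.664] times its E17.5 level at P0. Over the list of 15, 10 genes passed the minimum between E17.5 and P0, 6 of them higher and 4 lower, with a median of 0.24 that turns to -0.92 after thinning and to -0.48 with at most 10% mitochondrial UMIs. Between P0 and the transplant 13 passed, 9 higher and 4 lower, a share near that of all genes, with a median of 0.66 beside 0.36 for all genes.

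The secreted and surface products that mark the segment varied gene by gene. Wfdc15b was at 259, 605, 768 and 655 CPM. Wfdc2, a related secreted inhibitor, was at 766, 1378, 1447 and 2434 CPM. Kng2, a kininogen, was at 51.5, 260, 341 and 876 CPM, 2.57-fold [2.40, 2.76] higher in the transplant than at P0, and was found after thinning in 2 of 9, 27 of 53, 134 of 211 and 254 of 325 members. These 3 genes were lowest at E15.5. Sostdc1, a secreted antagonist of BMP and Wnt signals, was at 1068, 2444, 2410 and 1652 CPM, and Tmem213 at 294, 580, 758 and 935 CPM.

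Several products were nearly absent in the youngest members. Car15, a membrane carbonic anhydrase, had 0 UMIs at E15.5 and was at 150, 483 and 391 CPM after that, 3.21-fold [2.58, 4.05] higher at P0 than at E17.5. Spp1, the secreted phosphoprotein osteopontin, was at 4.98, 182, 589 and 1073 CPM, 3.23-fold [2.65, 3.98] higher at P0 than at E17.5. In the transplant other cells held 1651 CPM of Spp1, more than the members. Klk1, tissue kallikrein, was at 1.66, 14.1, 46.1 and 599 CPM, 13-fold [10.9, 15.6] higher in the transplant than at P0. Other cells had 2.79 CPM of Klk1 at P0 and 264 CPM in the transplant, and Slc12a3 cells of the transplant 1338 CPM. Ckb, brain-type creatine kinase, went the other way: it was at 9.97, 111, 159 and 10.6 CPM, 15.0-fold [11.5, 20] lower in the transplant than at P0, while other cells had 45.6 and 57.2 CPM. Of the 17 genes on the list, 15 passed between E17.5 and P0, 12 higher and 3 lower, with a median of 0.39. All 17 passed between P0 and the transplant, 9 higher and 8 lower, with a median of 0.21 in the members and 1.29 in other cells, and scaling to the median of all genes turns the members' value to -0.13.

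Among the transcription factors of the tubule, of which 22 passed between E17.5 and P0, 9 were higher and 13 lower at P0, with a median of -0.34. Pou3f3, needed for the loop of Henle, was at 309, 212, 110 and 213 CPM. Pax2, a factor of the forming nephron, was at 156, 111, 47.9 and 120 CPM, 0.430 [0.316, 0.589] times its E17.5 level at P0. Foxq1 was at 66.5, 24.8, 65.6 and 166 CPM. Sox9, a regulator of nephron formation that is also induced by injury, had 2, 4, 142 and 72 UMIs, 3.32, 7.07, 50.3 and 12.7 CPM, and was at 50.8 CPM in other cells at P0 as well. In the transplant 20 of 26 factors were higher than at P0, beside 71.5% of all genes, with a median of 0.73 beside 0.36 for all genes. Other cells had a median of 0.55, with 19 of the 26 higher. Tfcp2l1, a factor of the distal nephron and collecting duct, was at 136 CPM at P0 and 450 CPM in the transplant, 3.31-fold [2.97, 3.69]. Emx2 was at 26.9 and 80.6 CPM. Esrrb, an estrogen-related receptor, was at 1.66, 15.9, 18.4 and 1.76 CPM, with at most 0.470 CPM in other cells, and so 10.5-fold [5.25, 23.1] lower in the transplant than at P0.

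Several macula densa genes had few UMIs in the members, while Fabp3 made up most of the list's sum of 221, 810, 916 and 572 CPM. Nos1, neuronal nitric oxide synthase, had 3, 0, 0 and 62 UMIs. In the transplant it was at 10.9 CPM and at least 10.3-fold higher than at P0. After thinning 10 of 325 transplant members had it, against 0.156% of endothelial cells. Pappa2, a protease of the macula densa, was at 26.6, 1.77, 15.6 and 47.8 CPM, and Ptgs2, the inducible prostaglandin synthase, at 3.32, 0, 3.55 and 13.2 CPM. Ramp3 was at 6.65, 5.31, 7.80 and 59.8 CPM. Fabp3, a fatty acid binding protein, was the exception among the list in the second comparison, at 133, 760, 840 and 338 CPM and 2.48-fold [2.34, 2.64] lower in the transplant than at P0. Of the 8 genes that passed, 7 were higher in the transplant, 6 of them at least 2-fold, with a median of 1.56 in the members and 0.07 in other cells. Of all genes at that minimum 71.5% were higher and 17.3% at least 2-fold higher. Nos1 and Ptgs2 were among those that passed the minimum only through the transplant, where they were higher, so the counts describe the genes that passed.

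Cells with Slc12a1 but no Umod held more of these genes, and Umod, which the rule used, sets them apart from the members, so these are levels only. There were 23, 99, 261 and 168 such cells, and their Pappa2 was at 92.4, 255, 127 and 54.8 CPM and their Nos1 at 10.9, 21.3, 20.4 and 18.8 CPM. In the transplant the Pappa2 levels of the members and of these cells, 47.8 and 54.8 CPM, were close, while at E17.5 they were 1.77 and 255 CPM. Slc12a3 cells, which numbered 16, 32, 38 and 239, had Pappa2 at 0, 0, 12.3 and 0.729 CPM. Other lists were also summed in the members and, after them, in the cells with Slc12a1 but no Umod. Salt transport genes were at 5459, 13276, 12438 and 14719 CPM, against 3661, 12890, 10648 and 10842 CPM. Secreted and surface genes were at 2836, 6292, 7682 and 9381 CPM, against 2591, 8635, 7615 and 9137 CPM. Hormone genes were at 424, 460, 403 and 596 CPM, against 315, 684, 518 and 566 CPM.

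Genes of energy metabolism differed between the members of the transplant and those of P0. The 30 genes of oxidative phosphorylation summed to 21461, 39451, 37608 and 25799 CPM in the members and to 13708, 17182, 14439 and 21337 CPM in other cells. Between E17.5 and P0 the median log2 ratio of the members was -0.04, with 12 genes higher and 18 lower. Between P0 and the transplant 29 of 30 genes were lower in the transplant, 4 of them at least 2-fold, with a median of -0.54. Over all genes with at least 20 UMIs, 4.81% were at least 2-fold lower. In other cells all 30 genes of the list were higher in the transplant, with a median of 0.57. Cycs, cytochrome c, was at 1525 CPM at P0 and 680 CPM in the transplant, a ratio of 0.446 [0.427, 0.466], and at 399 and 635 CPM in other cells. Cox7a1, a subunit of cytochrome c oxidase, was at 40.4 and 15.2 CPM. Sdha, a subunit of succinate dehydrogenase, was the exception, at 233 and 285 CPM. The make-up of the other cells differed between these libraries, since their proximal tubule markers summed to 696 CPM at P0 and 2729 CPM in the transplant, and its part in their values was not tested. Cells with Slc12a1 but no Umod had sums of 24633 CPM at P0 and 22144 CPM in the transplant, and Slc12a3 cells 27748 and 41489.5 CPM.

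Citrate cycle and fatty acid genes had a median nearer 0: 7 of 22 were higher in the transplant and 15 lower, with a median of -0.14 in the members, which is just above 0 under 3 alternatives (0.027 with at least 1 UMI each of the rule genes, 0.00060 with mixed cells left out and 0.047 as a mean over cells), and 0.71 in other cells. Cpt2 and Cpt1a, which bring fatty acids into mitochondria, were higher in the transplant, at 50.3 and 117 CPM against 15.2 and 59.6 CPM at P0, and Idh3a, of the citrate cycle, was lower, at 132 against 281 CPM. Ppargc1a, the coactivator of mitochondrial genes, was at 189, 288, 328 and 143 CPM, 2.29-fold [2.08, 2.52] lower in the transplant than at P0. It lies outside the naming rule and is given for its known role.

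Glycolysis genes were lower in the transplant, in the members and for most of them in other cells. In the members all 17 were lower than at P0, 12 of them at least 2-fold, with a median of -1.43 in the members and -1.14 in other cells, where 4 of the 17 were higher. Over all genes with at least 20 UMIs, 4.81% were at least 2-fold lower in the members. Hk2, a hexokinase, was at 6.65, 5.31, 34.4 and 1.23 CPM, 27.9-fold [13, 71.1] lower in the transplant than at P0. Slc16a3, the lactate exporter, had 95 UMIs at P0 and 0 in the transplant, at least 63.6-fold lower. In other cells Hk2 was at 31.5 and 3.39 CPM and Slc16a3 at 34.8 and 0.966 CPM. Ldhb, the lactate dehydrogenase form of oxidative tissue, was at 1981 and 1907 CPM. Between E17.5 and P0, 14 of 17 genes were higher at P0, with a median of 0.28.

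**Figure D3:**
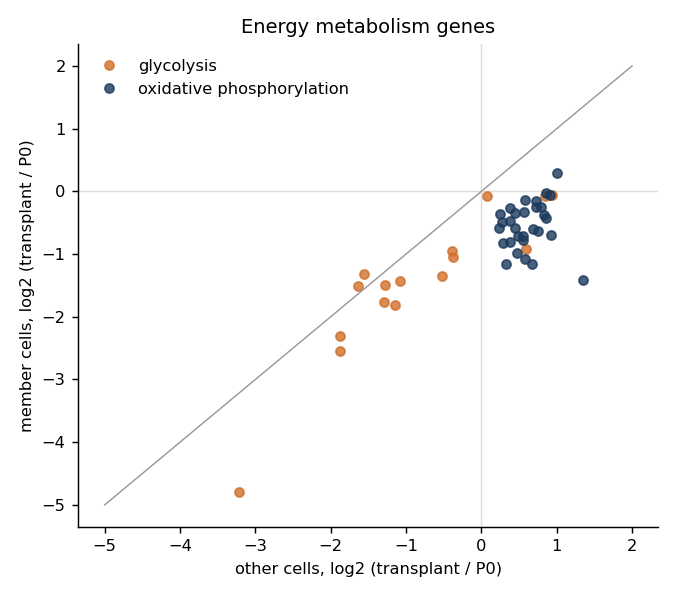
Log2 ratio of transplant to P0 in other cells (horizontal axis) and in the members (vertical axis) for each gene of glycolysis and of oxidative phosphorylation with a UMI in the transplant members. The line marks equal ratios, and the 30 oxidative phosphorylation genes lie below it, while most glycolysis genes are below 0 on both axes.

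Cell division genes were lower at P0 than at E17.5. All 19 proliferation genes were lower, 12 of them at least 2-fold, with a median log2 ratio of -1.35 in the members and -0.36 in other cells. Over all genes with at least 20 UMIs, 6.82% were at least 2-fold lower and the median was -0.15. Cenpf, a kinetochore protein, was at 181, 127, 27.7 and 16.9 CPM and Ccnb1, a mitotic cyclin, at 34.9, 42.4, 9.57 and 8.11 CPM. After thinning Top2a was found in 3 of 9, 11 of 53, 18 of 211 and 17 of 325 members. The 8 genes furthest below their E17.5 level by the naming rule were all of histones or mitosis: Hist1h1b, Cenpe, Hist1h1e, Cenpa, Hist1h2ae, Hjurp, Cenpf and Hmmr, with ratios between 0.152 [0.0919, 0.248] for Cenpe and 0.220 [0.177, 0.272] for Hist1h1e. Between P0 and the transplant 17 of 19 were lower, with a median of -0.54 in the members and -1.21 in other cells.

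The genes furthest above their E17.5 level at P0 were of another kind, and other cells showed them as well. They were Cxcl10, Hspa1a, Cxcl1, Cldn4, Atf3, Creb5, Hspa1b and Maff, which are chemokines, heat shock proteins, a claudin and early response transcription factors. Hspa1a had 2, 37, 2216 and 767 UMIs and was at 65.4 CPM at E17.5, 786 CPM at P0 and 135 CPM in the transplant, with 62.2, 629 and 101 CPM in other cells. Cxcl10 was at 5.31 CPM at E17.5 and 264 CPM at P0, from 3 and 745 UMIs, a ratio of 49.8 [17, 242], with 17.1 and 95.8 CPM in other cells. Cldn4 was at 31.6, 28.3, 320 and 149 CPM, and at 92.6 and 345 CPM in other cells at E17.5 and P0. Hspa1a and Hspa1b are near-identical copies and reads could be split between them.

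As a list, 23 of 25 genes of dissociation stress were higher at P0, 13 of them at least 2-fold, with a median of 1.01 in the members and 0.60 in other cells. Over all genes with at least 20 UMIs, 5.50% were at least 2-fold higher. Glucocorticoid response genes were higher for 9 of 9, with a median of 1.46 and 1.0 in other cells. Mt1, a metallothionein, was at 862, 828, 2279 and 488 CPM, with 285, 119, 299 and 262 CPM in other cells, and Sgk1, a salt-regulating kinase, at 0, 8.84, 50.7 and 16.4 CPM, with 25.4, 113, 245 and 197 CPM in other cells. Tubular injury genes were higher for 13 of 15, with a median of 1.23 and 0.38 in other cells, and Gdf15, a stress-induced growth factor, had 0 UMIs at E17.5 and 88 at P0, at least 5.88-fold higher. Antigen presentation genes were higher for 8 of 8, with a median of 1.46 and 0.98 in other cells, and B2m, the light chain of class I molecules, was at 44.2 and 130 CPM, with 249 and 311 CPM in other cells. Over the same members the mitochondrial share was 5.70% at E17.5 and 8.07% at P0, and 4 and 18 members were marked as doublets. The part of tissue handling in these values was not tested.

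In the transplant the stress genes were lower again, with 21 of 25 below P0 and a median of -0.87 in the members and -0.72 in other cells. Atf3 was at 932 CPM at P0 and 70.7 CPM in the transplant, 13.2-fold [11.9, 14.7] lower. Of the antigen presentation genes 12 of 16 were higher, a share near that of all genes, with a median of 1.05 in the members and 1.79 in other cells. Among the 16, 9 were at least 2-fold higher and 3 at least 2-fold lower, beside 17.3% and 4.81% of all genes with at least 20 UMIs. The summed level of the antigen presentation genes was 726 CPM in transplant members and 3281 CPM in other transplant cells. H2-D1, a class I heavy chain, was at 16.6, 30.1, 79.4 and 276 CPM, with 16.2, 67.6, 161 and 506 CPM in other cells, but reads of class I genes could be split between close copies and strains differ in them.

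**Figure D4:**
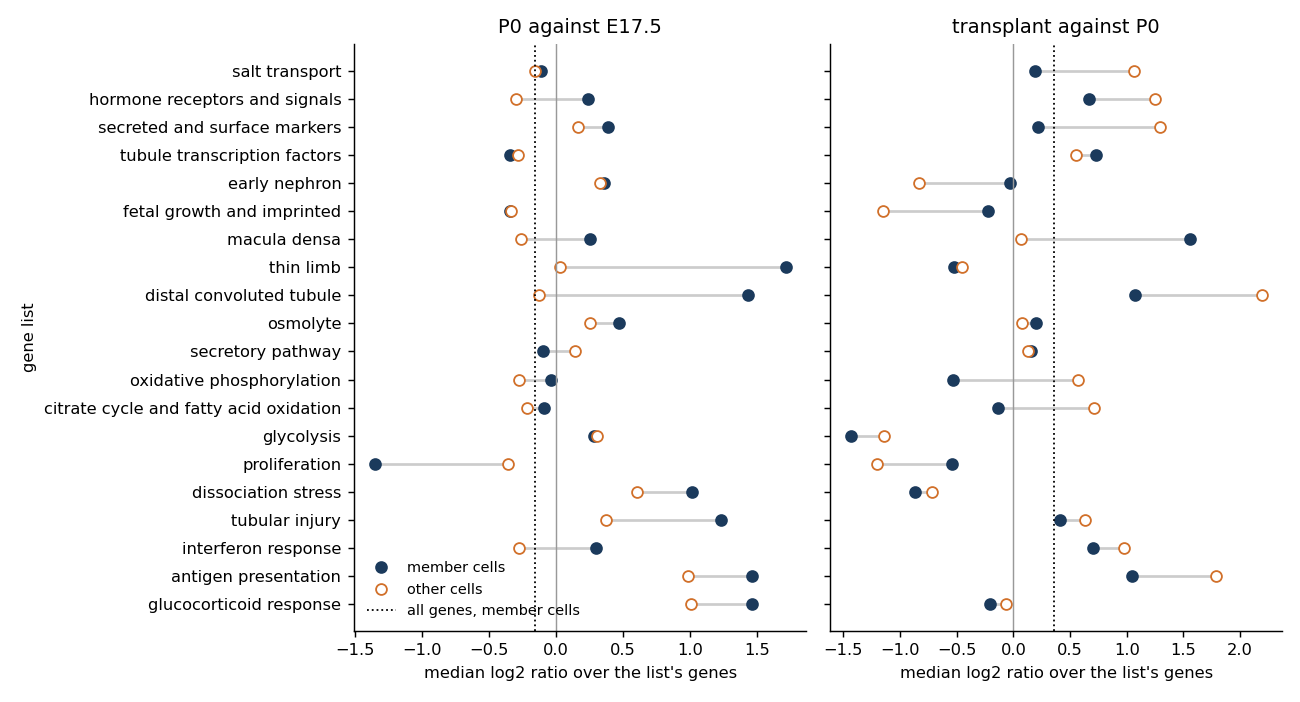
Median log2 ratio over the genes of each list with at least 20 UMIs (horizontal axis) for P0 against E17.5 and for the transplant against P0, in the members (filled) and in other cells of the same libraries (open), with the members' median over all genes as a dotted line. Proliferation is at -1.35 in the members for the first comparison, and oxidative phosphorylation is at -0.54 in the members and 0.57 in other cells for the second.

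Genes of osmolyte handling and of protein secretion gave mixed counts. Slc5a3, which takes up the osmolyte inositol, was at 155, 281, 224 and 258 CPM in the members, against 14.0, 23.6, 32.3 and 28.0 CPM in other cells. Nfat5, the factor that responds to high salt, was at 150, 133, 133 and 157 CPM. Of the osmolyte genes 4 of 6 were higher at P0 than at E17.5, with a median of 0.47 that turns to -0.28 with at least 1 UMI each of the rule genes and to -0.19 after thinning, and 4 of 7 higher in the transplant than at P0, with a median of 0.20 that scaling turns to -0.14. Of the 20 secretory pathway genes 9 were higher and 11 lower at P0, with a median of -0.09, and 11 higher and 9 lower in the transplant, with a median of 0.16. Within that list Dnajb9 and Herpud1, which respond to unfolded protein, were at 148 and 175 CPM at P0 against 42.4 and 51.3 CPM at E17.5, and at 67.7 and 79.2 CPM in the transplant.

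Lists of neighbouring segments and of earlier stages gave mixed counts. Of the distal convoluted tubule genes 5 of 5 that passed were higher at P0 than at E17.5, with a median of 1.43, and 4 of 6 in the transplant, with a median of 1.08 and of 2.19 in other cells. S100g, a calcium-binding protein of the distal nephron, was at 24.9, 44.2, 122 and 1052 CPM, and at 247 CPM at P0 and 1448 CPM in the transplant in other cells. After thinning it had a UMI in 15.1%, 16.6% and 48.9% of members at E17.5, P0 and in the transplant. In endothelial cells the shares were 9.74%, 9.85% and 39.3%, and the part of free S100g RNA was not tested. Of the thin limb genes 3 of 4 were higher at P0, Cldn4 among them, with a median of 1.71, and 2 of 6 in the transplant, with a median of -0.52. Neither direction held throughout: the first was -0.38 with at least 1 UMI each of the rule genes and the second 0.46 after thinning. Early nephron genes had medians of 0.36 for P0 against E17.5 and -0.03 for the transplant against P0, the first turning to -0.20 after thinning and the second to 0.33 with mixed cells left out. Ccnd1 was at 214, 638, 380 and 146 CPM, and Clu, a secreted chaperone of injured and developing tubules, at 33.2, 30.1, 51.4 and 182 CPM, with 74.5, 136, 202 and 351 CPM in other cells. Interferon response genes had medians of 0.30 and 0.70, the second from 11 genes higher and 6 lower and turning to -1.02 after thinning and -0.050 with mixed cells left out. Irgm1, an interferon-induced GTPase, had 3 UMIs at P0 and 61 in the transplant, a ratio of 10.1 [3.30, 50.4].

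Of the genes furthest apart between the transplant and P0, most had few UMIs in 1 of the libraries. The 8 highest by the naming rule were Tmem61, Wnt10a, Gabrp, Upk1a, Fxyd3, Kap, Klk1 and Tspan1. Wnt10a, a Wnt ligand, had 0, 2, 6 and 366 UMIs and was at 2.13 CPM at P0 and 64.6 CPM in the transplant, 30.3-fold [13.8, 83.2], with 0.590 and 2.35 CPM in other cells. Tspan1, a membrane tetraspanin, was at 9.93 and 157 CPM, 15.8-fold [10.9, 23.9], with 2.47 and 16.8 CPM in other cells. Tmem61 had 0 and 113 UMIs, at least 18.7-fold higher, with 6.33 CPM in other transplant cells. Gabrp, a GABA receptor subunit, had 1 and 156 UMIs, a ratio of 77.6 [13.7, 3085], and Upk1a, a uroplakin, 1 and 154 UMIs, a ratio of 76.6 [13.5, 3046]. In other transplant cells Gabrp was at 4.71 CPM and Upk1a at 3.31 CPM. Kap, an androgen-regulated proximal tubule gene, had 0 and 91 UMIs, but other cells held 306 CPM against 16.1 CPM in the members.

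The 8 lowest were Slc16a3, Igf2, Pvalb, Tsix, Chac1, Maff, Lpl and Fam71a. Lpl, lipoprotein lipase, was at 8.31, 138, 271 and 12.0 CPM, 22.6-fold [17.6, 29.3] lower in the transplant than at P0, while other cells went from 34.6 to 114 CPM. Igf2, the fetal growth factor, was at 61.5, 46.0, 53.2 and 0.882 CPM, with 551, 866, 541 and 45.0 CPM in other cells. H19, an imprinted transcript beside Igf2, was at 194, 124, 52.1 and 4.76 CPM. Meg3, another imprinted transcript, was higher in the transplant, at 8.86 and 94.7 CPM. Pvalb had 64 and 1 UMIs, a ratio of 0.00777 [0.000194, 0.0449], and Chac1 59 and 1. Tsix lies antisense to another transcript and the handling of strand is not given in the sources used here, so its value is uncertain. Of the 15 fetal growth and imprinted genes that passed, 9 were lower and 6 higher, with a median of -0.23 in the members and -1.15 in other cells.

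The members were not uniform in their claudins, but Cldn10 and Cldn16 did not divide them cleanly, since most members with Cldn16 also had Cldn10. Members deep enough to thin to 4000 UMIs were sorted by whether Cldn10 or Cldn16 had a UMI. At P0, 136 of 211 had Cldn10 only, 22 Cldn16 only, 43 both and 10 neither. In the transplant 174 of 325 had Cldn10 only, 31 Cldn16 only, 91 both and 29 neither, and at E17.5 39 of 53 had Cldn10 only, 3 Cldn16 only, 8 both and 3 neither. Cldn16 was found in 24.0% of the P0 members with Cldn10 and in 68.8% of those without, in 17% and 50% at E17.5, and in 34.3% and 51.7% in the transplant. These are shares of cells within single libraries and were not tested. In endothelial cells, which should lack both, Cldn10 had a UMI in 2.55%, 3.25% and 10.3% of thinned cells at E17.5, P0 and in the transplant and Cldn16 in 0.232%, 0.203% and 0.780%, and the part of free Cldn10 RNA in the transplant groups was not tested. No E15.5 member had Cldn16 after thinning.

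Cldn16-only and Cldn10-only members differed in other genes as well. The members with both claudins, more numerous than those with Cldn16 only, had no part in this contrast. The 8 genes furthest apart in each direction were chosen from the P0 cells after their values were seen, so their P0 ratios are a description, and the transplant cells, which had no part in the choice, give a second reading. Car15 was at 3536 CPM in Cldn16-only members and 81.2 CPM in Cldn10-only members at P0, 43.5-fold [36.6, 52.0], and at 1363 and 146 CPM in the transplant, 9.36-fold [8.28, 10.6]. Spp1 was 21.3-fold [18.8, 24.1] higher with Cldn16 at P0 and 2.41-fold [2.22, 2.60] in the transplant. Tmem52b, which is on the list of distal convoluted tubule genes, was 21.5-fold [14.8, 31.9] and 10.3-fold [8.28, 12.9] higher. Wnk1 was at 1083 against 97.2 CPM at P0 and at 486 against 134 CPM in the transplant. Foxq1 was at 302 against 22.3 CPM and at 416 against 80.7 CPM, and Pth1r at 568 against 71.7 CPM and at 562 against 176 CPM. Sfrp1, a secreted Wnt antagonist, had a ratio of 6.88 at P0 and 1.72 in the transplant.

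The genes lower with Cldn16 at P0 were Ccnd1, Anxa2, Stmn1, Ptn, Cdkn1a, Pclaf, Ube2c and Plet1, several of which act in cell division. Ccnd1, cyclin D1, was at 40.9 against 438 CPM at P0, a ratio of 0.0933 [0.0446, 0.172], and at 33.1 against 192 CPM in the transplant, 0.172 [0.101, 0.275]. In the transplant 8 of 8 of the first set were higher with Cldn16, each with an interval above 1, and 8 of 8 of the second set were lower, 6 with an interval below 1. Cdkn1a and Plet1 were the 2 whose intervals reached 1, with ratios of 0.857 [0.663, 1.10] and 0.748 [0.492, 1.10]. These intervals cover the counting of UMIs summed over cells of 1 library and not the spread among cells. How many of all genes were higher or lower between the transplant groups was not counted, so the counts of 8 have no scale beside them.

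Other measures went with the claudin groups. Slc12a1 had a median of 25.2 UMIs per 10000 in Cldn16-only members and 12.7 in Cldn10-only members at P0, and of 41.6 and 25.4 in the transplant. Umod went the other way, with medians of 3.18 and 8.80 at P0 and 2.19 and 14.2 in the transplant, so the Cldn16-only cells lay nearer to the minimum of the rule. Proliferation genes summed to 360 and 990 CPM at P0 and to 562 and 762 CPM in the transplant. Distal convoluted tubule markers summed to 258 and 69.0 CPM at P0 and to 2493 and 590 CPM in the transplant, nearly all of it S100g there. The doublet score marked 0 Cldn16-only members in either library and 14 and 3 Cldn10-only members. Members with under 5 Slc12a1 UMIs per 10000 numbered 0 with Cldn16 only and 24 with Cldn10 only at P0. In the transplant they numbered 0 and 23. Proximal tubule markers summed to 20.4 and 202 CPM at P0 and to 49.7 and 107 CPM in the transplant. The part of these in the gene differences was not tested. Casr was at 28.6 against 5.31 CPM at P0, from 7 and 10 UMIs, and at 20.3 against 9.73 CPM in the transplant, where the interval of the ratio, [0.932, 4.34], reached 1. Slc9a3, the sodium-proton exchanger, was at 102 against 30.8 CPM at P0 and 75.5 against 24.9 CPM in the transplant. Ptger3 was at 69.5 against 104 CPM at P0, a ratio of 0.668 [0.381, 1.10] that reached 1, at 18.4 against 41.1 CPM in the transplant, 0.448 [0.209, 0.855], and at 186 against 82.4 CPM in the 3 and 39 cells of E17.5, from 4 and 35 UMIs. Cldn19 was close in both groups, at 225 and 210 CPM at P0.

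**Figure D5:**
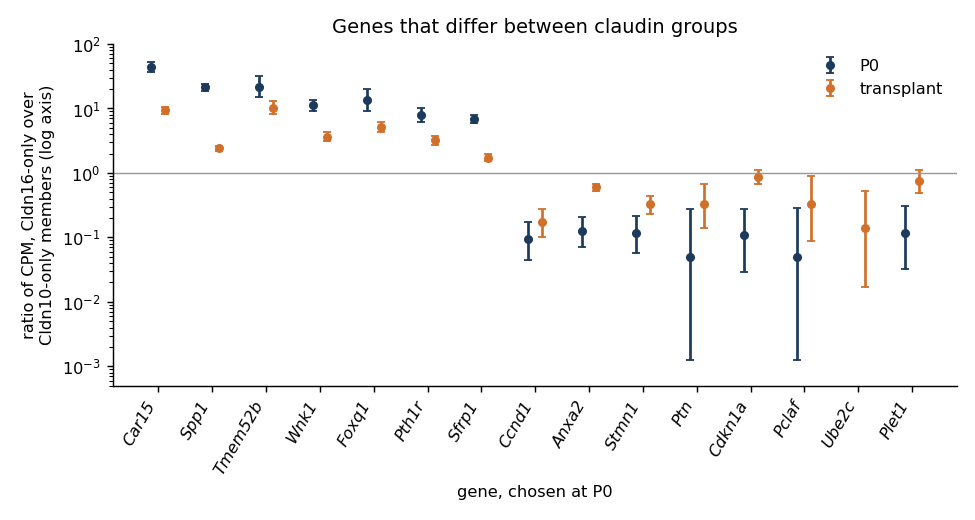
Ratio of CPM in Cldn16-only over Cldn10-only members (log axis, 1 marks equal levels) for the genes chosen at P0 that are named in the text, in P0 and in the transplant, with exact 95% intervals for counting error. The genes from Car15 to Sfrp1 are above 1 in both libraries, those from Ccnd1 to Plet1 below 1, and Ube2c has no P0 point because its Cldn16-only count was 0.

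The 9 cells of E15.5 give levels only. They had high depth, from 40033 UMIs at the first quartile to 95286 at the third, and held less of most transport genes than the later members, with Fxyd2 at 1195, Cldn10 at 317 and Umod at 101 CPM. They held more of some transcription factors, such as Pou3f3 at 309 CPM. Hemoglobin-led erythroid genes summed to 623 CPM in them and 13196 CPM in the other cells of that library. Per cell, Fxyd2 ranged in these 9 from 0.374 to 125 UMIs per 10000 with a median of 4.0, and Slc12a1 from 0.505 to 43.3 with a median of 8.99, so they were not alike. At P0 Fxyd2 had a median of 41.3 and Slc12a1 of 13.9. Umod had a median of 0.673 UMIs per 10000 in the 9 cells and of 8.73 at P0. The rule counts UMIs, so at the depth of E15.5 a cell could meet it with less Slc12a1 and Umod per UMI. Markers of another cell type were met by 8 of the 9. At E15.5, 0.549% of endothelial cells had 2 or more Umod UMIs, while members were 0.252% of cells. The part of these in the low levels was not tested.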

How the data were processed

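Single-cell RNA was measured in 4 libraries, 1 per group, for which the authors deposited whole-number UMI counts for each barcode and gene. Per the submitters' processing notes Cell Ranger 3.1.0 and the genome build GRCm38 were used. Per the file headers the E15.5 and P0 matrices were made with version 3.0.2 and the other 2 with 3.1.0. The treatment of strand and of shared reads is not given in the sources used here. The libraries held 4158, 5551, 10810 and 7670 barcodes with 92387054, 42430540, 99068204 and 57855356 UMIs, and the members held 601915, 565438, 2820480 and 5668970.

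Barcodes under 500 genes or above 20% mitochondrial UMIs were left out. UMIs were summed over the members of a library and given as CPM. Ratios have exact conditional binomial intervals, levels exact Poisson intervals and shares exact Clopper-Pearson intervals. Log2 ratios add 0.5 counts, and a gene at 0 is bounded with a floor of 3 counts per library. A gene was counted as 2-fold among those with at least 50 UMIs over both libraries, and list medians used genes with at least 20. No ratio was made for E15.5, which has under 20 members. Doublets were scored with Scrublet in scanpy 1.11.5 at 0.8% per 1000 cells and kept in. Thinning to 4000 UMIs used a fixed seed. Endothelial cells were those with 2 of 5 markers and no Slc12a1. The ratio step was tested on simulated counts.

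Genes named are the 8 highest and 8 lowest by the interval bound nearest 1 among those with at least 50 UMIs (leaving out the rule's genes, mitochondrial, ribosomal, globin, Xist and Y-linked genes) and, from each list, the 2 highest and 2 lowest. All genes of the salt transport, hormone, secreted and macula densa lists and cell type markers may be named. Ppargc1a, the genes of the claudin groups, and some further levels lie outside this rule and were chosen after their values were seen. The members and lists were chosen with earlier results of these data known. Alternatives tried were cell filters, rule thresholds, doublet removal, thinning, mixed cells left out, scaling, a mean over cells and minimum counts, and the closing section gives their effect. Python 3.11.15, NumPy 2.4.6, SciPy 1.17.1 and pandas 2.3.3 were used. Some genes are not reported here.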

Additional observations from a re-analysis of the deposited data

Results flagged for a closer look

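A transgene was found in a library labelled wild type. The P0 members held 195 UMIs of tdTomato, a red fluorescent protein, in 111 of 218 cells, 50.9%. It was present in 40.9% of the other P0 cells and in 53.7% of P0 endothelial cells. The members of the other 3 libraries held 0 UMIs of it, as did the other cells there. The level of tdTomato enters no comparison above, but both comparisons use the P0 library that carries it.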

How the results depend on the processing

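No paired analysis was possible because each group has 1 library. Leaving out a replicate was not possible for the same reason, and alternatives for P0 against E15.5 were not run because E15.5 has 9 members. Among the shares and counts of 2-fold genes, 54 alternatives stayed within their limits and 34 did not. Among list medians 346 did and 66 moved without changing sign. Among named genes 1661 did and 256 moved. For named genes a change of sign was counted apart only where the main log2 ratio was at least 1 in size. The 1661 and 256 can therefore include changes of sign in genes with smaller ratios. The cause of these changes was not tested, except that a higher minimum, thinning or leaving out cells tests fewer genes or cells by construction.

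The share of cells moved with the rule. With at least 1 UMI each of Slc12a1 and Umod it was 0.589%, 2.04% and 3.98% for the 3 ages and 8.42% for the transplant. With at least 3 each it was 2.31% at P0 and 4.56% in the transplant. With mixed cells left out of the members but kept among all cells it was 0.0281%, 0.877%, 1.92% and 1.93%. By that count P0 and the transplant differed little. Thinned, it was 0%, 0.851% and 1.96% for the 3 ages. It was 1.82% at P0 with at most 10% mitochondrial UMIs, 6.53% in the transplant with at least 1000 genes and, by a threshold chosen after seeing the data, 2.31% at P0 with at least 5 Slc12a1 UMIs per 10000.

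Counts of 2-fold genes moved most with the minimum. For P0 against E17.5 the higher and lower counts were 504 and 625 at 20 UMIs, 90 and 22 at 200, 1031 and 1829 at 1, and 86 and 57 after thinning, and the lower count was 136 when scaled by the median ratio. For the transplant against P0 they were 610 and 186 at 200 UMIs, 2794 and 1678 at 1, 538 and 159 after thinning and 713 and 688 scaled, and the higher count was 808 with mixed cells left out.

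Some list medians changed sign, among them ones that were not near 0, such as those of thin limb (1.71 and -0.52), osmolyte (0.47) and interferon genes (0.70). For P0 against E17.5 scaling gave 0.023 for salt transport, 0.040 for the secretory pathway, 0.095 for oxidative phosphorylation and 0.043 for the citrate cycle. Thinning gave -0.92 for hormone receptors, -0.20 for early nephron and -0.19 for osmolyte genes. A limit of 10% mitochondrial UMIs gave -0.48 for hormone receptors, and at least 1 UMI each gave -0.15 for macula densa, -0.38 for thin limb and -0.28 for osmolyte genes. Oxidative phosphorylation was 0.024 with at least 3 UMIs each and 0.044 with mixed cells left out. For the transplant against P0 scaling gave -0.16 for salt transport, -0.13 for secreted markers, -0.14 for osmolyte genes and -0.19 for the secretory pathway, which was -0.016 with at most 10% mitochondrial UMIs. Early nephron genes were 0.20 with doublets removed, 0.0027 thinned, 0.33 with mixed cells left out and 0.21 as a mean over cells. Thinning gave 0.46 for thin limb and -1.02 for interferon genes, which were -0.050 with mixed cells left out. The citrate cycle was 0.027 with at least 1 UMI each, 0.00060 with mixed cells left out and 0.047 as a mean over cells. Of named genes, only those with a main log2 ratio of at least 1 in size are given here. Corin at P0 against E17.5 was -0.51 with at least 1 UMI each, -0.30 thinned and -0.24 with at least 5 Slc12a1 UMIs per 10000. Cryab was -0.25 with at least 1 UMI each. For the transplant against P0, H2-T23 was 0.53 thinned and 0.069 with mixed cells left out, and thinning gave 0.89 for Osr2 and -0.21 for Socs3.

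Over the alternatives the oxidative phosphorylation median in the transplant ranged from -0.88 to -0.38, glycolysis from -1.78 to -1.32, and proliferation at P0 from -1.77 to -1.10.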
